A study of Mus musculus with 6 samples.

Results

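Ly6c2 inflammatory monocytes were followed in single-cell RNA-seq libraries from the mouse colon after bone marrow transplantation. They were 395 of the 39613 cells kept in 6 libraries. A cell was counted as a member when it held at least 4 unique molecular identifiers (UMIs, each counting 1 captured RNA molecule) of the monocyte genes Ly6c2, Plac8 and Ms4a4c together, and at least 5 UMIs of Lyz2, the lysozyme of myeloid cells. It could hold at most 2 UMIs of the complement genes C1qa, C1qb and C1qc, at most 1 UMI of T-cell receptor and CD3 genes, and none of Nos2, Arg1 or the epithelial gene Epcam. The neutrophil genes S100a8 and S100a9 had to stay below 1% of its UMIs and the proliferation genes Mki67 and Top2a below 2 UMIs. The cells were chosen by the measured UMIs of these genes, so their values are given below as a description. In the mm10 annotation Ly6c2 (ENSMUSG00000022584) lies at chr15:75108158-75111970 on the minus strand, Plac8 (ENSMUSG00000029322) at chr5:100553725-100572245 on the minus strand and Ms4a4c (ENSMUSG00000024675) at chr19:11404770-11427246 on the plus strand. Ly6c2 has a near-identical neighbour, Ly6c1, so its counts are uncertain where reads fit both genes.

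Every library came from the colon of transplanted mice, and each group had 1 library. The BM library was sorted from recipients of bone marrow alone, and the GVHD library from recipients that also received spleen cells. WT recipients and recipients lacking the cytokine IL-34 (labelled IL-34-/-, here IL34KO) each gave a macrophage library and a T-cell library. Macrophage libraries were sorted as donor-derived CD11b+ CD64+ cells, and T-cell libraries as donor-derived T cells, so the monocytes in the T-cell libraries were cells outside the intended population. Whether the WT and IL34KO recipients received spleen cells, the strains, ages and days after transplant, and how many animals were pooled are not given in the sources at hand. Per the labels, a 5′ and a 3′ capture kit were used, without saying which served which library, so kit and group cannot be told apart. With 1 library per group no comparison between groups has a replicate check. The 95% intervals below cover counting error only.

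Classical monocytes leave the bone marrow with the receptor CCR2, enter tissues with high surface Ly6C, and in the gut turn into macrophages while they gain MHC class II and complement C1q and lose Ly6C. In graft-versus-host disease donor T cells attack host tissues, the gut among them, and T-cell interferon gamma acts on myeloid cells. IL-34 and CSF-1 both bind CSF1R, the receptor on which many macrophages depend.

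The members' label was checked against genes the rule did not use. Vcan, the matrix proteoglycan versican of classical monocytes, was at 418 CPM (a gene's UMIs scaled to 1000000 of the members' summed UMIs) in the BM library and 232 in the GVHD library. It was at 384 and 275 CPM in the WT and IL34KO macrophage libraries and at 184 and 274 CPM in the WT and IL34KO T-cell libraries. The C1q-high macrophages of the same libraries, 7400 cells with at least 10 C1q UMIs, held 6.91 to 35.2 CPM. Ccr2, the receptor for the chemokine CCL2, was at 301 to 372 CPM in the members of the 6 libraries. In the 4 WT and IL34KO libraries its median log2 ratio to C1q-high macrophages was 0.12 (−0.2 to 0.32). Its level thus did not tell members from those macrophages. In GVHD 11 of the 13 Ccr2 UMIs came from 1 cell, and 8 of the 10 Vcan UMIs from 1 cell. Without the highest cell of each gene Ccr2 was at 54.4 CPM and Vcan at 64.2. Of the 26 listed resident macrophage genes 5 had no UMI in any member, Cd163, Vsig4, Cbr2 and Cd4 among them. The full list was not scarce. It summed to 1251 to 2918 CPM in members and to 5075 to 33630 CPM in C1q-high macrophages. The conventional dendritic cell markers Cd209a and Flt3 were at 0 and at most 2.15 CPM. The full list of 18 dendritic cell genes summed to 434.5 to 755 CPM in members and 499 to 654 CPM in C1q-high macrophages. Cx3cr1, high in patrolling (non-classical) monocytes, ranged from 0 to 37.4 CPM and Cd300e was at 0. The full list of 14 non-classical monocyte genes was not scarce. It summed to 1133 to 1413 CPM in members and to 653 to 1162 CPM in C1q-high macrophages. Vcan and Ccr2 were thus detected in the members of every library, with UMIs of each in 2 of the 5 GVHD members.

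After every cell was thinned to 2000 UMIs, 39.1% of the WT and 32.4% of the IL34KO macrophage-library members held a Vcan UMI, against 0% and 0.5% of the T cells in those libraries. The 0% is 0 of 81 T cells, which an exact interval bounds at 4.45%. Shallower cells were left out, 4 and 6 members and 10 and 18 T cells. Without thinning the members' shares were 57.7% and 44.1%. Members' median depths there were 7440 and 5817 UMIs and those of the T cells 5179 and 4196.5 UMIs. In the T-cell libraries 16.0% (WT) and 20.6% (IL34KO) of the thinned members held Vcan. Most members of these libraries thus gave no Vcan UMI at this depth, and a single cell held 21 of the 42 Vcan UMIs in WT and 22 of the 44 in IL34KO.

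Cells on either side of the thresholds show what the rule separated. The 12 cells that passed with a Ly6c2, Plac8 and Ms4a4c sum of 4 UMIs had Vcan at 78.1 CPM and Apoe at 859 CPM. The 18 that failed with a sum of 3 had Vcan at 114 CPM and Apoe at 2160 CPM. The 72 members with 2 C1q UMIs had Vcan at 255 and H2-Ab1 at 2719 CPM. The 49 cells that failed with 3 C1q UMIs had Vcan at 292 and H2-Ab1 at 2687 CPM. Between 2 and 3 UMIs the C1q limit thus cut through cells with alike levels of these genes. In all, 2111 further cells failed that limit alone. Among them were 132 BM cells, 213 GVHD cells, and 421 and 364 cells of the WT and IL34KO macrophage libraries. Not all of these were like members: in WT their Vcan went from 275 CPM with 3 to 9 C1q UMIs to 11.5 CPM with 100 or more. The Nos2 and Arg1 limits jointly set aside 303 further cells.

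Some features of the libraries touch all that follows. The BM and GVHD libraries shared 2502 deposited cell barcodes, and those barcodes were dropped from BM. Other library pairs shared 5 to 75. Summed members' UMIs were 184121 in BM, 43156 in GVHD, 1066161 and 929568 in the WT and IL34KO macrophage libraries, and 227893 and 160319 in the T-cell libraries. Il34 itself was not lower in the library labelled IL34KO. Over all cells it was at 1.81 CPM (interval 1.55 to 2.11) there and 0.976 CPM (0.778 to 1.21) in the WT macrophage library. The matrices do not say which part of the gene these UMIs came from, so the count does not check the deletion. Among markers of other cells, T and NK genes summed to 17.8 to 150 CPM in the members. B and plasma cell genes summed to 0 to 65.2 CPM and epithelial genes to 38.0 to 283 CPM. Stromal genes summed to 223 CPM against 33.8 in C1q-high macrophages in the WT macrophage library, and to 72.1 against 45.9 in IL34KO. Much of the WT sum came from single members, with 94 Dcn UMIs in 1 cell and 58 Col3a1 UMIs in 1 cell. Stromal sums in the T-cell libraries were also higher in members. They were at 145 against 61.3 CPM in the WT and 237 against 59.45 in the IL34KO T-cell library. In BM and GVHD they were lower in members, at 32.6 against 133.5 and 0 against 49.7 CPM. Plasmacytoid dendritic cell genes summed to 190 to 301 CPM in members and 271 to 576 in C1q-high macrophages. The neutrophil list summed to 359 CPM in BM, 463 in GVHD, 1376 and 1760 in the WT and IL34KO macrophage libraries, and to 406 to 1411 CPM in C1q-high macrophages.

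Members made up 0.746% of the BM cells (19 of 2546, exact binomial interval 0.450 to 1.16) and 0.185% of the GVHD cells (5 of 2698, 0.0602 to 0.432). In the WT macrophage library they were 2.61% (137 of 5245, 2.20 to 3.08), and in the IL34KO macrophage library 2.23% (145 of 6494, 1.89 to 2.62). The WT and IL34KO intervals overlapped, and both lay above those of BM and GVHD. In the T-cell libraries members were 0.363% of the WT cells (51 of 14061) and 0.443% of the IL34KO cells (38 of 8569), with overlapping intervals. The rule counts UMIs, so a share moves with depth, and the median cell had 10816 to 15577.5 UMIs in the macrophage libraries and 6162 to 6274 in the T-cell libraries. Applied to cells thinned to 2000 UMIs, the rule gave 1.34% in BM (0.917 to 1.88) and 0.831% in GVHD (0.515 to 1.27), and these intervals overlapped. It gave 5.54% in WT and 5.21% in IL34KO macrophage libraries.

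**Figure D1:**
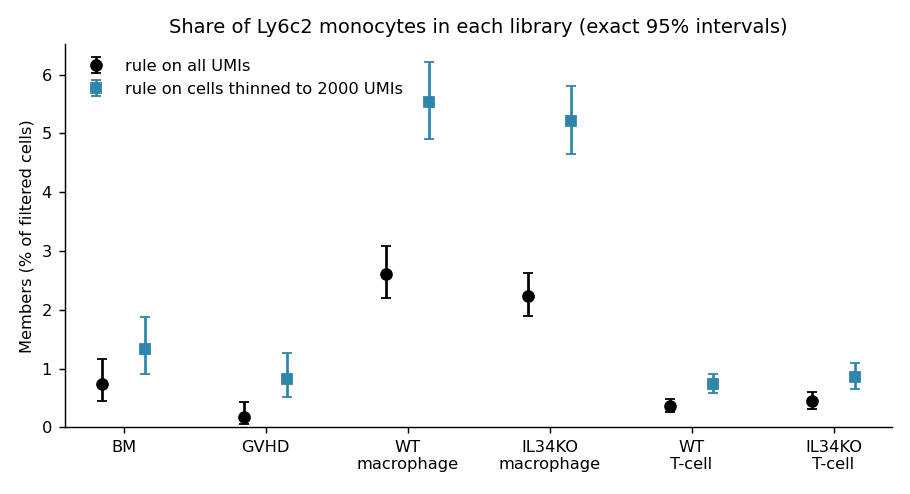
Share of each library's cells that met the member rule, in percent on the vertical axis, for the 6 libraries, with exact 95% binomial intervals as bars; black circles use all UMIs and blue squares cells thinned to 2000 UMIs. With all UMIs the WT and IL34KO macrophage libraries sit at 2.61% and 2.23%, above BM at 0.746% and GVHD at 0.185%.

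Beside the C1q-high macrophages of the same library, members held more RNA of blood-monocyte genes and less of tissue macrophage genes. This contrast follows from the C1q limit and from the monocyte gene sum, which C1q-high macrophages did not have to reach. The contrast is thus a description with no test. It used the 4 WT and IL34KO libraries, each with at least 30 cells of both kinds. Of 5543 genes measured in all 4, 135 (2.44%) were at least 1.5-fold higher in members in every library and 225 (4.06%) at least 1.5-fold lower in every library. Vcan stood highest, with a median 17.1-fold higher level (log2 ratios 3.06 to 5.01 over the 4 libraries). Hp, the haemoglobin scavenger haptoglobin, was a median 6.15-fold higher, and Chil3, the chitinase-like protein Ym1 of monocytes, 5.15-fold. Among the lowest genes were the chemokines Ccl8 (median 26.1-fold lower) and Pf4 (26.0-fold), the lectin Mgl2, the alternative activation product Retnla and the lysosomal glycoprotein Gpnmb (10.2-fold).

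By gene group, 12 of the 24 measured classical monocyte genes were at least 1.5-fold higher in members in all 4 libraries and 0 lower. The median log2 ratio was 1.15 beside 0.06 over all measured genes. Ly6c2, Plac8 and Ms4a4c, which the rule required, are among the 12 and enter that median. Of the 8 measured non-classical monocyte genes 3 were higher and 1 lower, with a median of 0.86. Of the 14 measured resident macrophage genes 0 were higher and 11 lower, with a median of −1.93. These included Apoe, the lipid carrier (9.29-fold lower), the apoptotic cell receptor Mertk (−2.14), the tetraspanin Cd81 (−2.54) and the kinase receptor Axl (−1.59). Csf1r, the receptor of IL-34, differed little, with a median of −0.32. Of 12 MHC class II genes 3 were lower, with a median of −0.54, H2-Eb1 at −1.27 and H2-Ab1 at −0.53. The 25 interferon gamma genes had a median of 0.50 with 2 higher and 0 lower, and Gbp2 was at 0.92. Of 12 alternative activation genes 1 was higher and 6 lower, with a median of −1.78. In the neutrophil list, 2 of 6 measured genes were higher. They were S100a8, which the rule capped in both kinds of cell, and Wfdc21, among the highest at a median of 2.16.

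**Figure D2:**
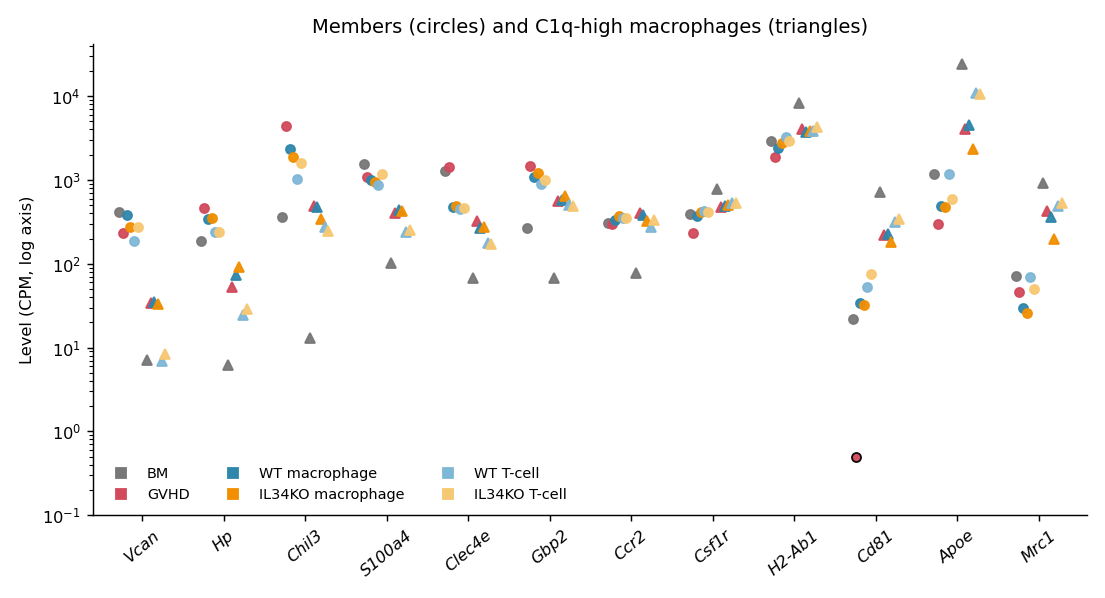
Level in CPM, on a log axis, of monocyte, macrophage and antigen presentation genes in members and in C1q-high macrophages of each of the 6 libraries, 1 point per library. Vcan and Hp lie higher in members and Apoe and Cd81 lower in every library; a level of 0 (Cd81 in GVHD members) is drawn at 0.5 CPM with a black edge.

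Cells that met every other limit were then ordered by their C1q UMIs, from 0 to 100 or more, to see how the members' genes continued into cells that the C1q limit left out. In the WT macrophage library Vcan was at 510 CPM in the 57 cells without C1q, 313 with 1 to 2, 275 with 3 to 9, 96.7 with 10 to 29, 72.2 with 30 to 99 and 11.5 CPM in the 72 cells with 100 or more. In the IL34KO macrophage library the same groups had 309, 247, 237, 103, 40.02 and 16.6 CPM. Vcan thus stepped down with C1q in both libraries, with alike levels on either side of the limit of 2 UMIs. In the T-cell libraries Vcan was at 64.7 CPM without C1q and 266 with 1 to 2 in WT, and at 108 and 456 CPM in IL34KO, then at most 29.3 CPM beyond the limit. Apoe ran the other way, from 424 to 6181 CPM in WT, and in IL34KO it was at 546 CPM without C1q, 406 with 1 to 2 and 1697 with 100 or more. H2-Eb1, an MHC class II chain, went from 1039 to 4304 CPM in WT and from 1434 to 4135 in IL34KO. Il1b, the cytokine interleukin-1 beta, went from 5722 to 3091 CPM in WT and from 5699 to 3279 in IL34KO. Median depth rose along the same order, from 6455 to 16879.5 UMIs in WT and from 5809.5 to 16105 in IL34KO, and its part in these orders was not tested.

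**Figure D3:**
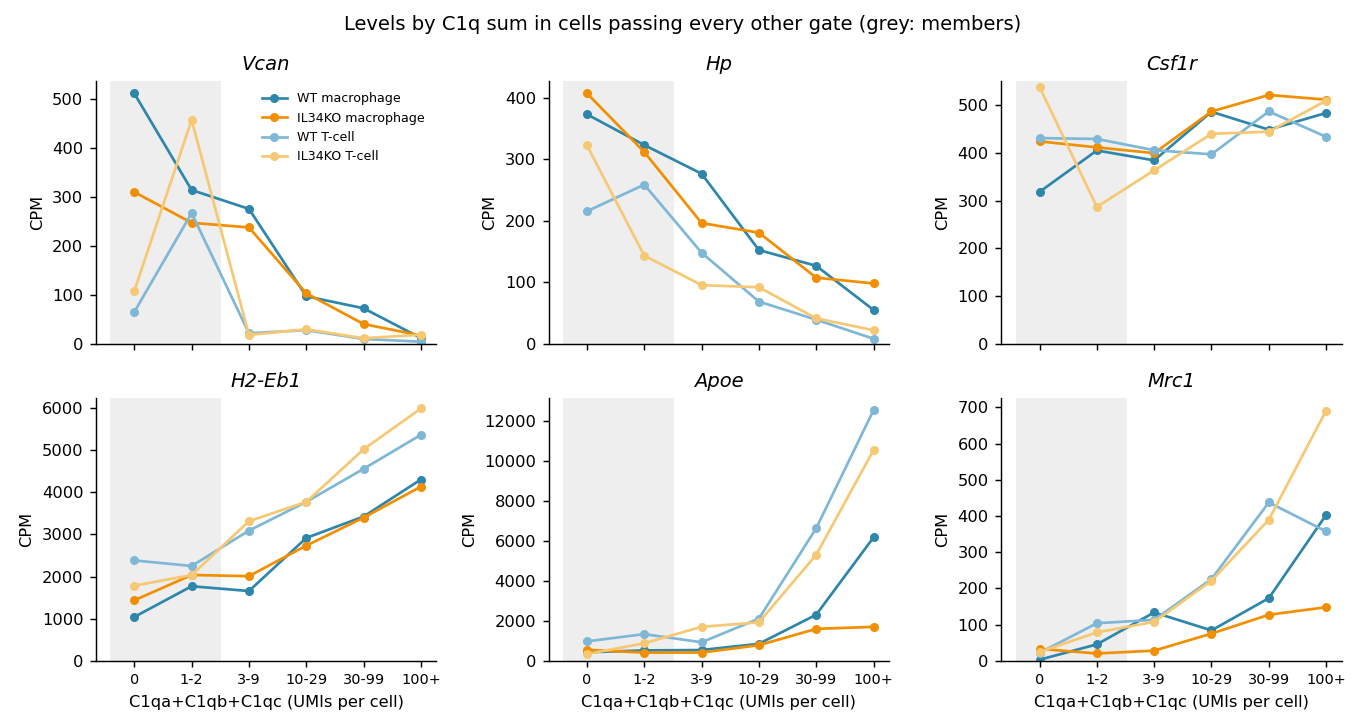
Level in CPM of Vcan, Hp, Csf1r, H2-Eb1, Apoe and Mrc1 against the C1q UMIs per cell, in groups from 0 to 100 or more, with a line for each of the 4 WT and IL34KO libraries; the grey band marks members, with 0 to 2. In the macrophage libraries Vcan steps down from 510 to 11.5 CPM in WT and from 309 to 16.6 in IL34KO, while Apoe and H2-Eb1 are higher where C1q is higher.

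The members themselves spanned a range of MHC class II. Members of each library were split at the median of their summed MHC class II UMIs per 10000, which was 97.5 in the WT and 99.8 in the IL34KO macrophage library. The split is a cut through a continuous range: 18 WT and 14 IL34KO members lay within 10% of it. Vcan was at 681 CPM in the WT members below the median and 123 CPM in those above, a log2 difference of −2.47. In the IL34KO macrophage library it was at 467 and 97.5 CPM, −2.26. The coagulation factor gene F13a1 differed by −2.83 and −3.06 and Chil3 by −1.28 and −1.41 in these libraries. All of these classical monocyte genes were therefore lower where MHC class II was higher.

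Ly6c2 differed in the same direction, by −1.02 and −0.96, while Plac8 differed by only −0.01 and −0.18. The median member below the split held 12.8 Ly6c2 UMIs per 10000 in WT and the median member above it 4.92, and for Vcan 3.68 and 0. Genes higher above the split were the integrin Itgax (log2 2.20 in WT and 2.73 in IL34KO), the T-cell attracting chemokines Ccl5 (2.91 and 1.48) and Cxcl9 (1.24 and 0.92), Axl (1.31 and 1.28) and Apoe (0.93 and 1.29). Vcan in the T-cell libraries differed by −4.02 in WT and −3.78 in IL34KO, Apoe by 2.40 and 2.78, and Ccl5 by 1.39 and 1.5. BM and GVHD, with 19 and 5 members, did not give all of these signs. In BM Ly6c2 was at 1356 and 1382 CPM below and above the split, Itgax at 31.8 and 0, Cxcl9 at 10.6 and 0, and Ccl5 at 84.8 and 22.3. In GVHD Ccl5 was at 137 and 71.9 CPM and Cxcl9 at 239 and 0.

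Cells with Nos2 or Arg1 but otherwise like members were left out by the rule. Nos2 makes nitric oxide from arginine and Arg1 turns arginine into ornithine. They were 96 of the 233 cells that met the other limits in the WT macrophage library (41.2%, 34.8 to 47.8) and 162 of 307 in IL34KO (52.8%, 47.0 to 58.5). They were 27 of 78 in the WT T-cell library (34.6%, 24.2 to 46.2) and 17 of 55 in the IL34KO T-cell library (30.9%, 19.1 to 44.8), and these intervals overlap. In BM they were 1 of 20 and in GVHD 0 of 5. In the macrophage libraries they were deeper than members, with medians of 9000 UMIs in WT and 7596 in IL34KO. Inhba, which encodes a subunit of activin A, was at 972 CPM in these WT cells against 102 CPM in members, 9.51-fold higher (7.79 to 11.7), and at 1033 against 206 CPM in IL34KO, 5.0-fold (4.30 to 5.85). The interleukin gene Il1a was 2.5-fold and 2.53-fold higher and the prostaglandin synthase Ptgs2 2.28-fold and 2.39-fold. Vcan was 3.07-fold and 2.78-fold lower. The members were thus the cells with the higher Vcan and lower Inhba on these counts.

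Interferon gamma response genes came next, and the promoters of 5 of them are shown because BM members held the lowest level of each. Gbp2 and Gbp5 encode guanylate-binding proteins that attack intracellular microbes, Irf1 a transcription factor induced by interferons, and Cxcl9 and Cxcl10 chemokines that attract CXCR3-bearing T cells. The RefSeq sequences (GRCm38.p6) run from 250 bases before to 50 bases after each start. They lie at chr3:142620413-142620712 (plus strand, Gbp2), chr3:142496684-142496983 (plus, Gbp5), chr11:53769764-53770063 (plus, Irf1), chr5:92348840-92349139 (minus, Cxcl10) and chr5:92328030-92328329 (minus, Cxcl9). Capitals mark matches to TTCNNNGAA, a gamma-activated site form that is its own reverse complement, and to the core of an interferon-stimulated response element (ISRE), spelled GAAA, then any NN, then GAAA, searched on both strands.
Gbp2: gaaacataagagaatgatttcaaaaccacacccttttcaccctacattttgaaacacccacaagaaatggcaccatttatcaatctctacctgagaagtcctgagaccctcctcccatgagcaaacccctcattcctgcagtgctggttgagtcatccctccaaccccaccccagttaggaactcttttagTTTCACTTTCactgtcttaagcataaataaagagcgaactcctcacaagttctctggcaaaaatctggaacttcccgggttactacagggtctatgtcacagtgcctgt
Gbp5: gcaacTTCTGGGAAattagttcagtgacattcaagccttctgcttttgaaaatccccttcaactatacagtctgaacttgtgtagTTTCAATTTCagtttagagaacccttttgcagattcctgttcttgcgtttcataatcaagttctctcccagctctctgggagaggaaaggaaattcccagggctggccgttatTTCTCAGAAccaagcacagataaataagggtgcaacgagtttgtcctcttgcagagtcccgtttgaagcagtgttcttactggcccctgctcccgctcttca
Irf1: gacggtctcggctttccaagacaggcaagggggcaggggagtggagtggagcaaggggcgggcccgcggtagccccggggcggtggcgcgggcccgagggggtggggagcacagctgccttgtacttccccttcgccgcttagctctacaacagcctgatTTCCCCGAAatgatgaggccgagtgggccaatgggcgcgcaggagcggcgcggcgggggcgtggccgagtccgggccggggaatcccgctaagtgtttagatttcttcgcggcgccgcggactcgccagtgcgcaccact
Cxcl10: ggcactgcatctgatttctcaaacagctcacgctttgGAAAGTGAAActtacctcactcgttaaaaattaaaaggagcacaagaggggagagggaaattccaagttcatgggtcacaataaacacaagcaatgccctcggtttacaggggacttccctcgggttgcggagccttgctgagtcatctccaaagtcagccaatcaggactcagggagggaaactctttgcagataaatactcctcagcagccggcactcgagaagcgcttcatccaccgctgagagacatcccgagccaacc
Cxcl9: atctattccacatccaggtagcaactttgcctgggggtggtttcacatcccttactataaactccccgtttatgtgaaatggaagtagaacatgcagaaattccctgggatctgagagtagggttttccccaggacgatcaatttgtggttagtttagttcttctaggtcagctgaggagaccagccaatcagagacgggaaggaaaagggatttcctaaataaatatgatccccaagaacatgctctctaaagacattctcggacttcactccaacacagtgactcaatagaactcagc
Gbp2 held 1 match to the ISRE core, 59 bases before the start, and Cxcl10 held 1, 213 bases before. Irf1 held TTCNNNGAA 90 bases before its start. Gbp5 held TTCNNNGAA at 245 and 52 bases before and the ISRE core at 165. Cxcl9 held neither in this window. Of the 17 genes of the interferon gamma list with a promoter in the table, 8 (47.1%) held TTCNNNGAA and 9 (52.9%) the ISRE core. Of all 27025 genes with a promoter of this length, 9.55% and 3.99% did. Among 20 type I interferon-stimulated genes 3 held the first form and 11 the second, and among 20 classical monocyte genes 5 and 0. A match is a string of letters and not a measured binding site.

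Gbp2 was at 266 CPM in BM members, 1483 in GVHD, 1098 and 1194 in the WT and IL34KO macrophage libraries, and 895 and 1004 in the WT and IL34KO T-cell libraries. The BM interval (197 to 352) lay below that of every other library. Cxcl10 was at 130 CPM in BM and 1112, 1069, 1135, 684 and 462 CPM in the other 5 libraries in the same order. Cxcl9 was at 5.43 CPM in BM, from 1 UMI, and 162 in GVHD, 1014 and 1064 in the macrophage libraries, and 1058 and 674 in the T-cell libraries. BM members were lowest for all 3 genes, which were shown for that order. The full list of 28 interferon gamma genes summed to 2276 CPM in BM members and to 6400 to 8856 CPM in the members of the other libraries. Irf1 was at 125 CPM in BM, 301 in GVHD and 351 to 485 in the others, and Gbp5 at 70.6, 92.7 and 193 to 352. For Irf1 and Gbp5 the BM and GVHD intervals overlapped. The C1q-high macrophages showed a like order for Gbp2, with 67.6 CPM in BM and 485 to 639 elsewhere.

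Other inflammatory genes followed other orders across the libraries. Il1b was at 2743 CPM in BM members, 162 in GVHD and 4291 to 5736 in the WT and IL34KO libraries. Il1a was at 38.0 CPM in BM, 23.2 in GVHD and 218 to 356 in the others. The GVHD value lies near the floor, since even a count of 0 in those members allows up to 85.5 CPM. Cd14, the co-receptor for lipopolysaccharide, was highest in BM members at 2325 CPM and at 649 to 904 elsewhere. Clec4e, a receptor for mycobacterial glycolipids, was at 1265 CPM in BM and 1413 in GVHD and at 448 to 486 in the other libraries, so here BM and GVHD lay together. Thbs1, encoding thrombospondin, was at 2232 CPM in BM, 1159 in GVHD and 562 to 906 in the others. A single GVHD cell held 38 of its 50 UMIs there, and without it the level was 367 CPM. Csf1r stayed between 232 and 430 CPM and Itga4, an integrin chain for vascular adhesion, between 288 and 568. These orders run across libraries that may differ in kit and, for the T-cell libraries, in sort.

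**Figure D4:**
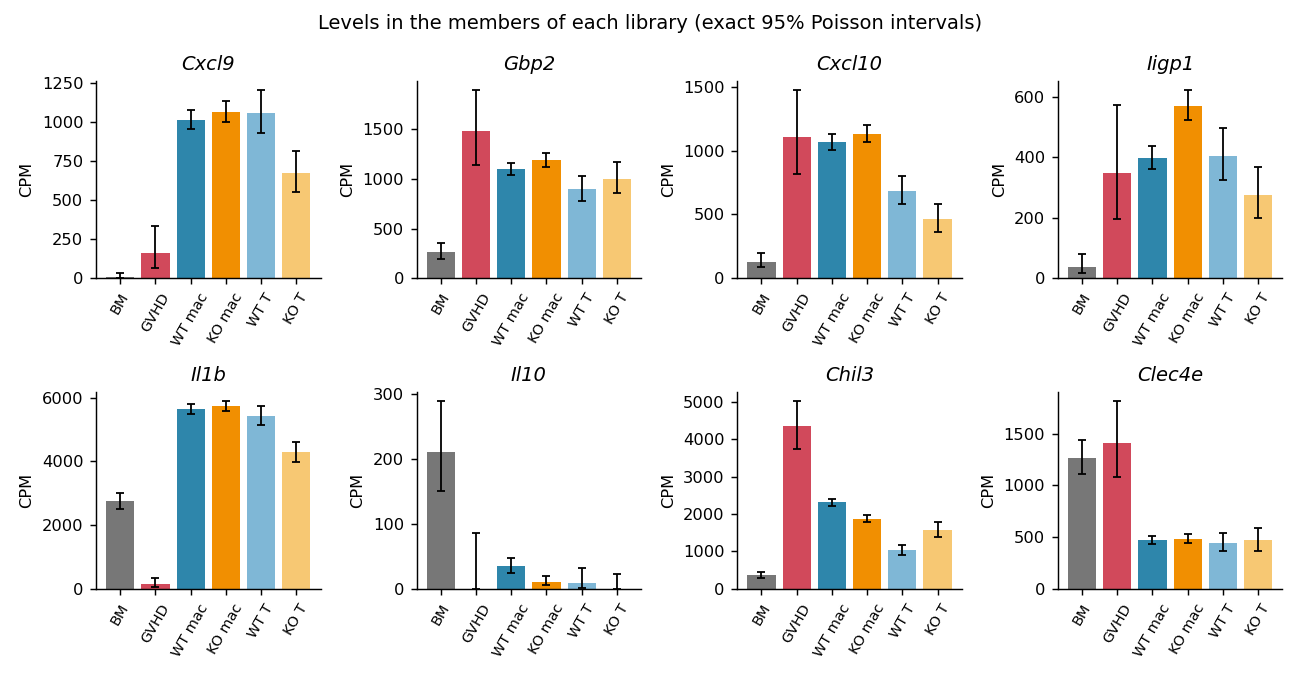
Level in CPM of Cxcl9, Gbp2, Cxcl10, Iigp1, Il1b, Il10, Chil3 and Clec4e in the members of each of the 6 libraries, as bars from 0 with exact 95% Poisson intervals as whiskers (mac, macrophage library; T, T-cell library; KO, IL34KO). Gbp2 and Cxcl9 are lowest in BM (266 and 5.43 CPM), Il1b is lowest in GVHD (162 CPM) and Chil3 highest there (4356 CPM).

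GVHD and BM members were compared to set monocytes of recipients with transplanted spleen cells beside those of recipients without. The GVHD side rests on 5 cells. Of 841 genes with at least 20 CPM in either library and 50 UMIs in all, 110 (13.1%) were at least 1.5-fold higher in GVHD members and 196 (23.3%) at least 1.5-fold lower, with a median log2 ratio of −0.07. Other scalings moved this split: trimmed mean of M values factors gave 45 higher and 345 lower with the median at −0.43, and median-of-ratios factors 52 and 327 with −0.40. A log2 ratio under those factors is lower than the CPM ratio by as much as the median is. Chil3 was at 4356 CPM in GVHD and 359 in BM, 12.2-fold higher (9.14 to 16.3) and found in 4 of the 5 cells. Cxcl10 was 8.53-fold higher (5.13 to 14.6), in 3 cells, and Gbp2 5.57-fold (3.78 to 8.26), in all 5 cells. Ly6a, the interferon-inducible surface protein Sca-1, was at 857 against 158 CPM. All 4 measured interferon gamma genes were at least 1.5-fold higher, with a median log2 ratio of 1.72. The lowest of them, Cd274, at 0.69, was below 1.5-fold without the highest cell (0.55), on thinned cells (0.27) and under both other scalings (0.33 and 0.36).

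Genes lower in GVHD members included Il1b, at 162 against 2743 CPM, 16.9-fold lower (8.15 to 42.3) with UMIs in 3 of 5 GVHD and 15 of 19 BM cells. The interferon-induced genes Ifi27l2a (185 against 1695 CPM) and Ifitm2 (162 against 1466 CPM) were lower, and of 4 measured type I interferon genes 0 were higher and 2 lower. Cd14 was at 649 against 2325 CPM. All 3 measured resident macrophage genes were lower, with a median of −1.97, Apoe at 301 against 1184 CPM. Of 19 classical monocyte genes 4 were higher and 4 lower, with a median of −0.14. Of 8 MHC class II genes 0 were higher and 2 lower. Of 8 MHC class I genes 2 were higher and 0 lower, with a median of 0.30 that became −0.06 and −0.03 under the other scalings.

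Single cells carried some of the other differences. A single GVHD cell held all 73 Hspa1b UMIs, 1 BM cell held 92 of 106 Lyz1 UMIs, and 1 BM cell held 49 of 74 Isg15 UMIs. With the highest cell of each library left out for each gene, log2 ratios were 3.77 for Chil3, 3.81 for Cxcl10, 2.66 for Gbp2 and −4.67 for Il1b. Applying the rule to thinned cells, which admits 21 GVHD and 32 BM cells, brought Il1b to −0.14, Cxcl10 to 0.86, Ifi27l2a to −0.94 and Cd14 to −0.93, and left Chil3 at 2.79 or above in every setting tried. The stress and dissociation list had 5 of 15 genes higher and 3 lower, with a median of 0.24 that became −0.12 and −0.09 under the other scalings, and its part in these differences was not tested.

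In the macrophage libraries, members from recipients labelled IL34KO were compared with WT members to see what the monocytes look like where IL-34 is said to be missing. Of 5077 measured genes 193 (3.8%) were at least 1.5-fold higher and 197 (3.88%) at least 1.5-fold lower, with a median log2 ratio of 0.00. Il1b (5736 against 5643 CPM), Ly6c2 (1122 against 1074), Csf1r (417 against 374) and Ccr2 (372 against 329) had log2 ratios of 0.02, 0.06, 0.16 and 0.18. Of 25 measured classical monocyte genes 0 were higher and 1, Fn1, was lower, with a median of −0.11. Of 12 MHC class II genes and 16 MHC class I genes 0 were past 1.5-fold in either direction. The interferon gamma list had 1 of 26 genes higher and 0 lower.

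Ccl2 (ENSMUSG00000035385, chr11:82035571-82037453, plus strand), the ligand of CCR2 that draws monocytes into tissue, was at 46.3 CPM in the library labelled IL34KO and 160 CPM in WT, 3.45-fold lower (2.45 to 4.94) and found in 23 of 145 against 37 of 137 members. Tnf, the cytokine TNF, was at 76.4 against 154 CPM, 2.01-fold lower (1.52 to 2.70). Slpi, a secreted protease inhibitor, was at 257 against 548 CPM, 2.13-fold lower (1.83 to 2.49). The Slpi difference was limited to cells within the Nos2 and Arg1 limits. In the cells which only those limits left out, Slpi was at 697 CPM in IL34KO against 586 CPM in WT. Ccl2 and Slpi were named for lying among the 10 lowest genes of this comparison, so their intervals do not serve as a test. A single WT member held 33 Ccl2 UMIs. Without the highest cell of each library Ccl2 was at −1.7 on the log2 scale. The matrix gene Fn1 was 1.79-fold lower (1.47 to 2.18), the chemokine Ccl6 1.67-fold (1.51 to 1.85), the viral RNA sensor Ifih1 1.67-fold (1.27 to 2.21) and the transcription factor Klf6 1.53-fold (1.34 to 1.76). Of 12 measured chemokines 1, Ccl17, was higher and 3, Ccl2, Ccl6 and Ccl24, were lower, with a median of −0.21, and of 11 cytokines 2 were higher and 2 lower. In C1q-high macrophages Ccl2 was at 42.0 against 64.0 CPM and Tnf at 65.6 against 96.6 CPM. Rule-thinned members gave −0.74 for Ccl2, −0.64 for Tnf, −0.25 for Slpi and −0.51 for Ccl6.

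Among genes higher in the library labelled IL34KO, Inhba was at 206 against 102 CPM, 2.02-fold higher (1.59 to 2.58), in 53 against 41 members, and at 0.36 on the log2 scale in thinned members. The decoy interleukin-1 receptor Il1r2 was at 485 against 302 CPM, 1.61-fold (1.39 to 1.86), and the TGF-beta receptor Tgfbr2 at 66.7 against 34.7 CPM, 1.92-fold (1.26 to 2.97). Reg3b, an antimicrobial lectin known from gut epithelium, was at 52.7 against 13.1 CPM, 4.01-fold (2.18 to 7.87). No member held more than 2 Reg3b UMIs, and in C1q-high macrophages the gene was at 39.7 against 7.81 CPM. Of 4 measured epithelial genes 3 were higher, Krt8, Lgals4 and Muc2, and the 15-gene epithelial list summed to 283 against 187 CPM; its part in the Reg3b difference was not tested. Several of the most extreme genes rested on 1 cell: 94 Dcn UMIs, 58 of 59 Col3a1 and 38 of 63 Ccl24 in WT, and 51 of 52 Fabp4 and 61 of 69 Ccl17 in IL34KO. Without the highest cell Ccl17 went from 2.5 to −0.39 on the log2 scale and Ccl24 from −1.26 to −0.28. The nuclear oxidative phosphorylation list had 0 of 28 genes past 1.5-fold with a median of 0.23.

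**Figure D5:**
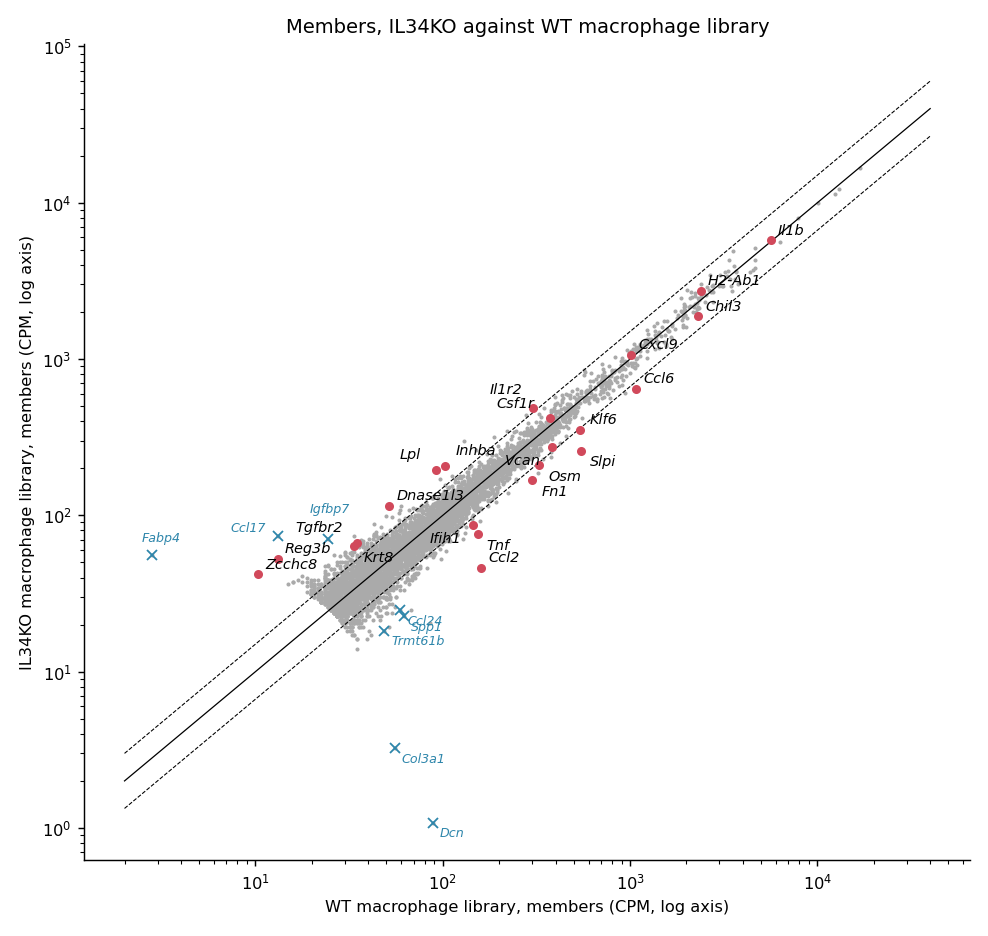
Level in CPM of each measured gene in members of the IL34KO macrophage library against the WT macrophage library, both axes logarithmic, with dashed lines at 1.5-fold and a count of 0 placed at 3 UMIs. Selected genes are in red, genes carried mostly by 1 cell are blue crosses, and Ccl2 (46.3 against 160 CPM) and Slpi (257 against 548 CPM) lie below the lower line.

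The T-cell libraries held 38 IL34KO and 51 WT members, from another sort. Of 1384 measured genes 113 (8.16%) were at least 1.5-fold higher in the library labelled IL34KO and 112 (8.09%) at least 1.5-fold lower, with a median of 0.01. Trimmed mean of M values factors gave 77 higher and 159 lower, and median-of-ratios factors 79 and 145. H2-T23, the non-classical class I molecule Qa-1, was at 318 against 123 CPM, 2.59-fold higher (1.60 to 4.26), and between 1.08 and 1.41 on the log2 scale in the settings tried. The peptide transporter Tap1 was at 349 against 206 CPM, 1.69-fold (1.13 to 2.55). These were the 2 of 11 measured class I genes past 1.5-fold, and the list's median was 0.32. The class I genes are a family of close copies, so reads of H2-T23 may be shared with others of the family. In C1q-high macrophages of the same libraries H2-T23 was at 282 against 188 CPM.

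The chemokine Ccl4 in the library labelled IL34KO was at 137 CPM against 338 CPM in WT, 2.46-fold lower (1.52 to 4.15), and the NF-kappaB subunit Rel at 480 against 913 CPM, 1.90-fold (1.46 to 2.5). Of 8 cytokines 0 were higher and 3 lower, with a median of −0.45: Inhba, Osm and Il1a. None of the 3 held 1.5-fold in every setting: Il1a, at −0.67, was at −0.57 without the highest cell and 0.15 on thinned cells, Inhba was at −0.10 with a monocyte gene sum of at least 8 UMIs, and Osm at −0.58 with each cell weighted equally. Of 20 transcription factors 2 were higher and 5 lower, with a median of −0.08. Of 19 classical monocyte genes 3 were higher and 0 lower, with a median of 0.13, Chil3 at 1578 against 1031 CPM. Cxcl9, at 674 against 1058 CPM, and Apoe, at 593 against 1185 CPM, turned to log2 ratios of 0.34 and 0.11 in thinned members. Hmox1 had 43 of 54 UMIs and Lpl 27 of 44 in 1 IL34KO member each.

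The IL34KO and WT comparison could be set side by side for the 1383 genes measured in both sorts, which share no library. Of these, 12 were at least 1.5-fold higher and 15 lower in the macrophage libraries, and 112 higher and 112 lower in the T-cell libraries. Over all 1384 genes measured in the T-cell libraries 8.16% were higher and 8.09% lower. Both sorts had 4 genes higher, Cmss1, Igfbp7, Lpl and Plxdc2, which is 33.3% of the macrophage-library calls and 3.57% of the T-cell-library calls. Igfbp7 came from 1 cell in each macrophage library. Both had 4 genes lower, Mpp7, Nedd9, Osm and Ppp4r2 (26.7% and 3.57%). Oncostatin M, the product of Osm, is a cytokine of activated myeloid cells, and its RNA was at 210 against 326 CPM in the macrophage libraries and 106 against 202 CPM in the T-cell libraries. Another 5 genes, Il1r2, Inhba, Ly6i, Man1a and Prdm1, were higher in the macrophage libraries and lower in the T-cell libraries, and 0 went the other way. These 5 are 41.7% of the 12 genes higher in the macrophage libraries, beside the 33.3% higher in both sorts.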

How the data were processed

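The 6 gene-by-cell matrices hold counts of UMIs as deposited by the authors, per the file headers and values: whole numbers for 32285 genes, not normalized. Cell Ranger 7.0.1 and the genome build mm10 are named in the submitters' processing notes. No cell annotation was used, so cell names rest on marker genes.

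The barcode filter asked for at least 500 genes and for mitochondrial UMIs of at most 10%, and BM barcodes also present in GVHD were dropped. Members were found by the rule given above. Their counts were summed per library and divided by the sum to give CPM. The members, gene lists and comparisons were chosen with earlier results of these data known. A gene counted as measured when either library reached 20 CPM and both summed to 50 UMIs, and as called past 1.5-fold. A library with 0 UMIs entered a ratio at 3 UMIs. Ratios carry exact conditional binomial 95% intervals, levels Poisson and shares Clopper-Pearson intervals. No p-value was computed, since each group has 1 library. Named genes were, for each comparison, 10 at either end of the log2 ratios after adding 5 CPM to each level, up to 4 genes per list furthest in the direction of its median, and 14 monocyte genes always given; single genes of other contrasts were chosen after their values were seen. Genes of the member rule, mitochondrial, ribosomal, haemoglobin, immunoglobulin and T-cell receptor genes were not ranked.

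Alternatives were other scalings (edgeR 4.0.16 TMM and DESeq2 1.42.0 median-of-ratios factors in R 4.3.3, used for size factors only), other CPM floors, cells weighted equally, a looser filter (200 genes, 20% mitochondrial) and a stricter one (1000 genes, 5% mitochondrial), a monocyte sum of 8, a C1q sum of 0, the rule on cells thinned to 2000 UMIs, doublet removal by score at 0.8% per 1000 cells, which would take 0 to 3 members per library, and shared barcodes kept. Leaving out each gene's highest cell was chosen after seeing the data. Scripts ran in Python 3.11.15 with numpy 2.4.6 and scipy 1.17.1, and were tested on simulated data. RefSeq promoters were read from the GRCm38.p6 table. Results on a few genes are not reported here.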

Additional observations from a re-analysis of the deposited data

Results flagged for a closer look

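Inhba, the activin A subunit gene, had opposite signs in the same contrast in the 2 sorts. In the macrophage libraries the members labelled IL34KO were at 206 CPM and the WT members at 102 CPM, a log2 ratio of 1.01. In the T-cell libraries they were at 150 and 342 CPM, a log2 ratio of −1.19. The difference between the 2 ratios was not tested, because each side has 1 library per group. One WT member held 41 of the 78 Inhba UMIs in the WT T-cell library, and with each library's highest cell left out the ratios were 0.96 and −0.80. On thinned cells they were 0.36 and −0.55, and with a monocyte gene sum of at least 8 UMIs the T-cell-library ratio was −0.10. In C1q-high macrophages Inhba was at 148 against 117 CPM in the macrophage libraries and 82.1 against 106 CPM in the T-cell libraries.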

How the results depend on the processing

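No paired analysis was possible because each group has 1 library. Shares of members rested on the C1q limit and on depth. With a C1q sum of 0 they were 0.393% in BM, 1.09% and 1.08% in the WT and IL34KO macrophage libraries, and 0.142% and 0.245% in the WT and IL34KO T-cell libraries. With the rule on thinned cells they were 1.34% in BM, 0.831% in GVHD, 5.54%, 5.21%, 0.735% and 0.851% in that order of the others, and the stricter cell filter gave 2.74% in the IL34KO macrophage library. Another 25 shares stayed within counting error. Genes past 1.5-fold between GVHD and BM were 306 of 841 measured (36.4%) as reported, 148 of 407 (36.4%) with a C1q sum of 0 and 84 of 333 (25.2%) on thinned cells; 90 and 47 of these were among the 306. In the macrophage libraries they were 390 of 5077 (7.68%), and 195 of 3503 (5.57%) with a floor of 50 CPM, all among the 390. In the T-cell libraries they were 225 of 1384 (16.3%), 94 of 592 (15.9%) with a C1q sum of 0 and 142 of 1069 (13.3%) on thinned cells; 37 and 49 of these were among the 225.

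The share of these genes that lay higher moved with the scaling. It was 35.9% for GVHD against BM and 11.5% with TMM or 13.7% with median-of-ratios factors. In the T-cell libraries it was 50.2%, 32.6% and 35.3%, and in the macrophage libraries 49.5% as reported and 39.9% with median-of-ratios factors. Leaving out each gene's highest cell, chosen after seeing the data, gave 13.5% for GVHD against BM.

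Of the log2 ratios under the alternatives, 2235 stayed within counting error, 156 moved and 11 turned sign. On thinned cells Rgs2 was −0.14 and Sod2 0.22 for GVHD against BM, Ccl24 0.25 and Tcf4 −0.22 in the macrophage libraries, and Apoe 0.11, Il1a 0.15, Cxcl9 0.34 and the resident macrophage list 0.04 in the T-cell libraries. With a C1q sum of 0 Zfp36 was −0.41 for GVHD against BM and Cxcl9 0.17 in the T-cell libraries. Without the highest cell Fos was −0.89 and Zfp36 −0.22 for GVHD against BM. The causes were not tested.

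The GVHD members, 5 cells with 43156 UMIs, allowed 841 genes to be measured against BM, where the macrophage libraries allowed 5077. A count of 0 in the GVHD members allows up to 85.5 CPM.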

Other observations

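Further genes outside the comparisons above varied across the members. The peroxidase gene Prdx5 was at 967 CPM in BM members, 1298 in GVHD and 2645 to 3001 in the WT and IL34KO libraries. Il10, which encodes an anti-inflammatory cytokine, was at 212 CPM in BM members (39 UMIs), 34.7 in the WT and 10.8 in the IL34KO macrophage library, 8.78 in the WT T-cell library, and at 0 in the GVHD and IL34KO T-cell libraries.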
